A study of Mus musculus with 2 samples.

Results

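The genes of 4 receptors for steroid hormones were followed through the cell types of the fetal mouse testis. Of the 32285 genes in the deposited feature table, the 4 taken here were those with the symbols *Esr1*, *Esr2*, *Nr3c1* and *Nr3c2*. *Esr1* and *Esr2* encode the oestrogen receptors ERα and ERβ, *Nr3c1* encodes the glucocorticoid receptor and *Nr3c2* the mineralocorticoid receptor. Other steroid receptors are not analysed here. These proteins are transcription factors that wait in complexes with heat shock chaperones, bind a steroid, and then act at hormone response elements in DNA together with coactivators or corepressors. In the testis they are known as the route by which oestrogens and corticosteroids act on somatic cells, and the Leydig cell, which makes androgens, is a classical target of both.

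The nuclei came from E14.5 testes of mouse embryos that carried *Nr5a1-cre* and *Rosa-tdTomato*, from a cross of homozygous *Nr5a1-cre* mice with females homozygous for *Rosa-tdTomato*. *Nr5a1-cre* expresses Cre recombinase in steroidogenic cells and Sertoli cells, *Rosa-tdTomato* is a fluorescent reporter that Cre turns on, and every nucleus shares this genotype, so there is no group without it. Testes were frozen whole. The sources used here do not state the number of embryos behind the sample. The 10x multiome assay gave 1 RNA library and 1 library of open chromatin (ATAC, in which a transposase cuts accessible DNA), and all 9833 barcodes of the RNA library also held ATAC fragments. With 1 library of each kind there is no replicate, so no test between animals was possible, and the exact 95% intervals given here cover counting error only. Cell types are therefore compared by levels, shares and ratios, without p-values.

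After the quality filters 7197 nuclei were kept, with medians of 7949 RNA molecules (UMIs), 3157 genes and 4484 fragments. Clustering on both assays gave 13 clusters, named by marker genes as 12 classes: Leydig-like (801 nuclei) and Sertoli-like (831), germ-like (990), 2540 progenitor-like, 732 contractile-like, 392 of mesonephric mesenchyme, 549 of surface epithelium, and small classes of 96 endothelial-like, 67 pericyte-like, 69 immune-like, 47 erythroid-like and 83 supporting-like nuclei. The receptors, the gene lists used here and the peaks at the receptors were kept out of the clustering. All 6 Leydig markers, all 6 Sertoli markers and all 7 germ cell markers were highest in their own class, as were 5 of 8 progenitor markers and 4 of 5 of mesonephric mesenchyme. The supporting-like class was led by *Pax8* (732 CPM, counts of a gene per 1000000 counts of a class, against at most 25.9 CPM elsewhere). It also held the mesonephric tubule markers *Pax2* (53.3 CPM) and *Emx2* (44.4 CPM). *Lhx1* and *Cdh16* were at 4.93 CPM or less there, and *Emx2* was higher in surface epithelium-like nuclei (103 CPM). Clustering on RNA alone, a finer clustering and clustering without doublet removal left it unnamed, and mesonephric tubule markers scored highest in each.

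*Esr1* (ENSMUSG00000019768) lies on chromosome 10 at 4611593 to 5005614 on the plus strand of GRCm38, *Esr2* (ENSMUSG00000021055) on chromosome 12 at 76120419 to 76177259 on the minus strand, and *Nr3c2* (ENSMUSG00000031618) on chromosome 8 at 76899442 to 77245012 on the plus strand. The sequences just before the RefSeq starts of these 3 genes (GRCm38.p6) are shown because each overlaps an ATAC peak at a start of its gene, used further on. They are written 5′ to 3′ on the strand of the gene, capitals mark CCAAT boxes (CCAAT or ATTGG) and GC boxes (GGGCGG or CCGCCC), and a sequence under 250 bases was cut where an annotated exon begins. The windows are chr10:4611739-4611988 and chr10:4709908-4710154 for the upstream and downstream starts of *Esr1*, chr12:76177260-76177509 for *Esr2* and chr8:76902080-76902287 for *Nr3c2*.
Esr1 upstream start: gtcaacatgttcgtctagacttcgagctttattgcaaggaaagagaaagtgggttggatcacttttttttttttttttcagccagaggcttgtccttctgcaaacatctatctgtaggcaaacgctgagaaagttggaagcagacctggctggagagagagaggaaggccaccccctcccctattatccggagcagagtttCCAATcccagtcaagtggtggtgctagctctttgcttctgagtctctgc
Esr1 downstream start: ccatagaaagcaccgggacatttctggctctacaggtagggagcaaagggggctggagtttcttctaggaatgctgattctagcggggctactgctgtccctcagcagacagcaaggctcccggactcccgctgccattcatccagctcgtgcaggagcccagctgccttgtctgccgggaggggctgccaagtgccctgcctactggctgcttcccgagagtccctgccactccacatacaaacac
Esr2: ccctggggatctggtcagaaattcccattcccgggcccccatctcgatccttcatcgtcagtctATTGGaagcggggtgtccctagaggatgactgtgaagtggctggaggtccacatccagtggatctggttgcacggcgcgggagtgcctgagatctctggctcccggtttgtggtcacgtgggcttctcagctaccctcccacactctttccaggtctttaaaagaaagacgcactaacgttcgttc
Nr3c2: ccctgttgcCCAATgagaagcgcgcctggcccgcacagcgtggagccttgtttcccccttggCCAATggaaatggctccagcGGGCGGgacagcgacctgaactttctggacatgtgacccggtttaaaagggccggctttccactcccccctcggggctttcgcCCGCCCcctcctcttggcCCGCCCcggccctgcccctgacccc
The *Nr3c2* window held 67.3% G and C with 14 CpG sites, above the upper quartile of 61.2% over all RefSeq promoters. The upstream *Esr1* window held 47.6%, the downstream one 59.9% and the *Esr2* window 56.4%, against a median of 52.4%. *Nr3c2* had 3 GC boxes, a motif present in 32.7% of 32851 promoters of 250 bases, and 2 CCAAT boxes, present in 33.8%. The upstream *Esr1* window and the *Esr2* window had 1 CCAAT box each, and the downstream *Esr1* window had none of the motifs. No window held a TATA box (TATAAA, in 12.4% of promoters), the nuclear receptor half-site AAGGTCA (4.08%), an oestrogen response element (GGTCA and TGACC with 3 bases between, 0.0639%) or a glucocorticoid response element (0.387%). All motifs were searched on both strands, and a match is a run of letters only.

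*Esr1* was highest in Leydig-like nuclei and was high in the mesenchyme and the surface epithelium, while Sertoli-like and germ-like nuclei were near the bottom. Its level was 855 CPM in Leydig-like nuclei (836 to 874), 639 CPM in mesonephric mesenchyme-like (611 to 669), 507 CPM in surface epithelium-like (488 to 527) and, in progenitor-like nuclei, 368 CPM (360 to 377). Pericyte-like nuclei held 280 CPM and contractile-like nuclei 153 CPM (143 to 164). The next neighbours in this order, from contractile-like through endothelial-like (143 CPM), immune-like (142), germ-like (130), erythroid-like (126) and Sertoli-like (99.7) to supporting-like (96.7), did not differ beyond counting error. All higher neighbours did. Within that chain, however, the Sertoli-like interval (93.7 to 106 CPM) lay below that of contractile-like nuclei. A single nucleus held 49 of the 99 immune-like, 27 of the 50 erythroid-like and 98 of the 309 endothelial-like *Esr1* UMIs. Levels of these small classes thus rest largely on 1 nucleus each, which the counting intervals do not reflect. Against progenitor-like nuclei the ratio was 2.32 in Leydig-like (2.25 to 2.40), 1.74 in mesonephric mesenchyme-like, 1.38 in surface epithelium-like (1.32 to 1.44), 0.353 in germ-like and 0.271 in Sertoli-like nuclei (0.253 to 0.289).

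The progenitor-like class was itself uneven in *Esr1*. Its cluster led by cell-cycle genes (606 nuclei) stood at 288 CPM (275 to 301), and its other cluster (1934 nuclei) at 409 CPM (398 to 421). The value of mesonephric mesenchyme-like nuclei depended on the boundaries with other classes. Clustering on RNA alone gave a class of that name with 958 nuclei. By both assays 381 of these were mesonephric mesenchyme-like, 438 contractile-like and 113 surface epithelium-like. Another 294 contractile-like nuclei joined the progenitor-like class. The class of 958 nuclei stood at 389 CPM, a ratio of 1.07 (1.03 to 1.12) to its own progenitor-like class.

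Because classes differed in depth, each nucleus was also thinned to 2000 UMIs, which left out 74 shallower nuclei, 47 of them progenitor-like. *Esr1* then had a UMI in 72.7% of Leydig-like nuclei (69.4% to 75.7%; 761 of 801 nuclei before thinning), 58.1% of mesonephric mesenchyme-like, 52.6% of surface epithelium-like and 41.9% of progenitor-like nuclei (65.2% before thinning). The lowest share, taken as what free RNA in the droplets can give, was 6.06% in immune-like nuclei (1.68% to 14.8%), whose median depth was 5734 UMIs against 9715 in Leydig-like nuclei. The Sertoli-like share of 9.30% (7.41% to 11.5%) lay within the interval of that background, so *Esr1* there was not distinguishable from it. The germ-like share of 14.8% (12.6% to 17.1%) lay at the upper end of the same interval.

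**Figure D1:**
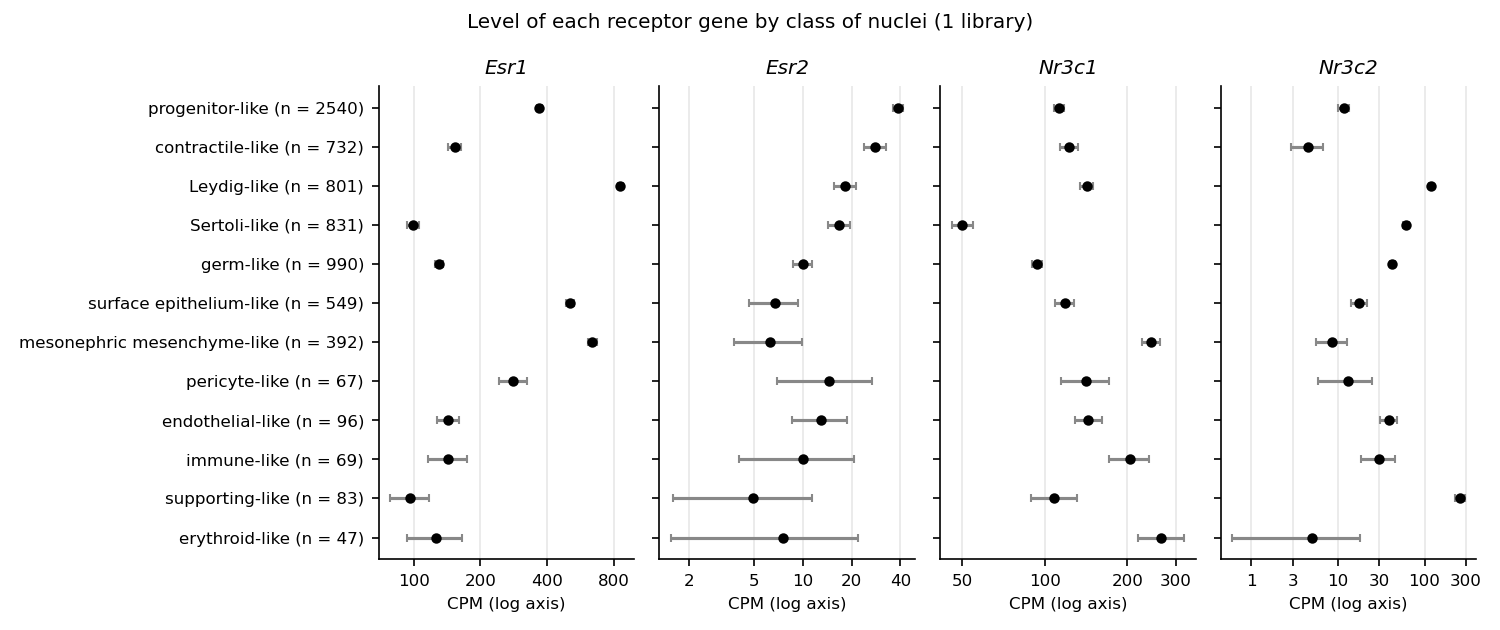
Level of each receptor gene (CPM, log axis) in the 12 classes of nuclei of the 1 RNA library, with n nuclei per class. Points are CPM of summed UMIs and bars are exact 95% Poisson intervals. *Esr1* peaks in Leydig-like nuclei at 855 CPM, *Esr2* in progenitor-like at 38.6 CPM, *Nr3c1* is high in mesonephric mesenchyme-like at 245 CPM and *Nr3c2* in supporting-like nuclei at 257 CPM.

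**Figure D2:**
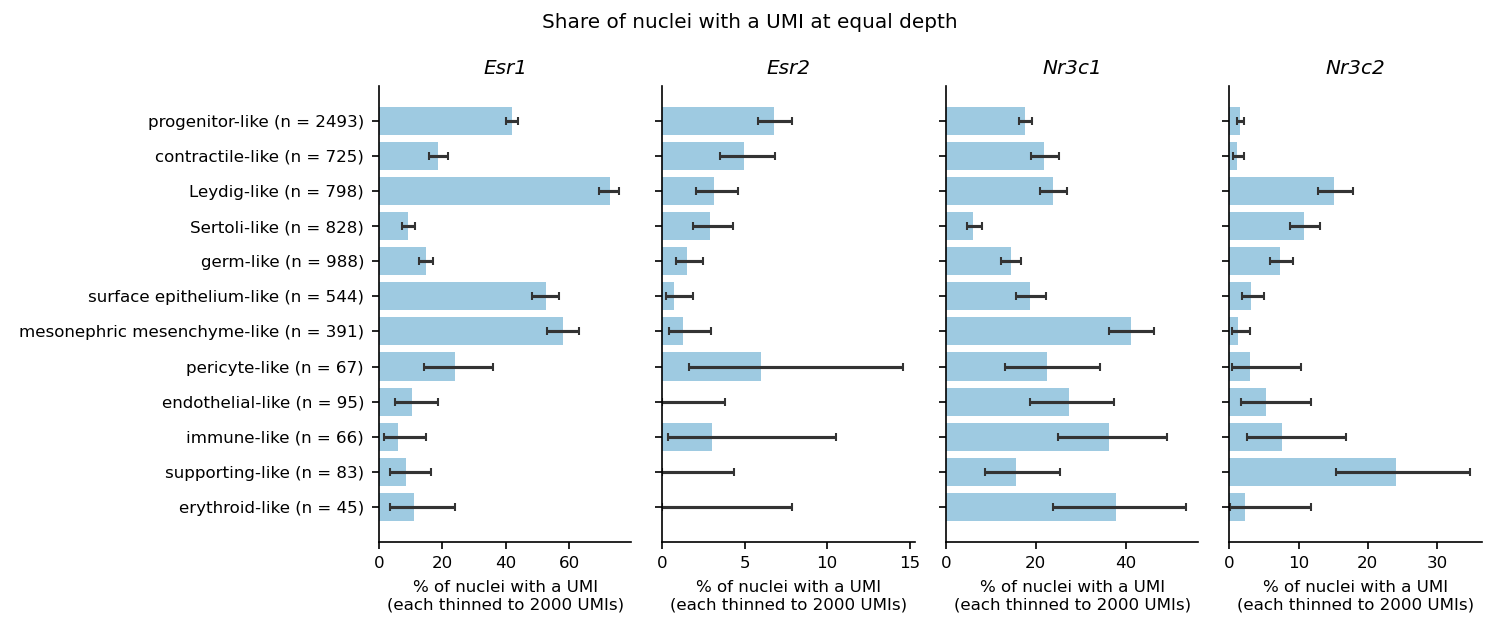
Share of nuclei with at least 1 UMI of each receptor gene after every nucleus was thinned to 2000 UMIs, with n nuclei per class. Bars start at 0 and whiskers are exact 95% Clopper-Pearson intervals. *Esr1* reaches 72.7% of Leydig-like nuclei, while *Esr2* stays at 6.78% or less in every class.

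The little *Esr1* of Sertoli-like and germ-like nuclei sat mainly in their deepest nuclei. In the Sertoli-like class, the 66 nuclei above 20000 UMIs held 653 of the 1009 *Esr1* UMIs (64.7%) and stood at 272 CPM (251 to 294), whereas the other 765 nuclei stood at 46.1 CPM (41.5 to 51.2). In the germ-like class, the values were 181 CPM in 280 deep nuclei and 67.4 CPM in the other 710. In the endothelial-like class they were 189 CPM in 22 deep nuclei and 38.4 CPM in the other 74. Leydig-like nuclei went the other way, with 613 CPM in 67 deep nuclei and 920 CPM in the other 734. Markers of other classes moved with this split. In deep Sertoli-like nuclei all 8 progenitor markers were higher, with a sum of 1732 CPM against 324 CPM in the others, all 6 Leydig markers were higher (705 against 268 CPM), and the 6 Sertoli markers were all lower (401 against 783 CPM). Their median doublet score was 0.153 against 0.00819. In deep germ-like nuclei the sum of the 8 progenitor markers, all higher, was 1155 CPM against 249 CPM. With doublets removed at the automatic threshold of the caller, which takes 1428 nuclei instead of 470, *Esr1* stood at 26.8 CPM in Sertoli-like and 57.7 CPM in germ-like nuclei, with Sertoli-like at 0.0740 of the progenitor-like level. Free RNA was estimated at 35.2% of the UMIs of Sertoli-like and 40.1% of those of germ-like nuclei. The estimate is the median, over markers of other classes, of their CPM in a class divided by their CPM in all kept nuclei. Markers that a class itself expresses, and RNA from doublets, also count in it. For each gene that share of its CPM in all kept nuclei was subtracted, and the rest was scaled up. Over the classes the estimate ran from 30.4% in erythroid-like to 63.0% in endothelial-like nuclei. Subtracting the estimated free RNA left no *Esr1* in Sertoli-like and 5.48 CPM in germ-like nuclei. The part of doublets and of free RNA in these values was not tested.

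**Figure D3:**
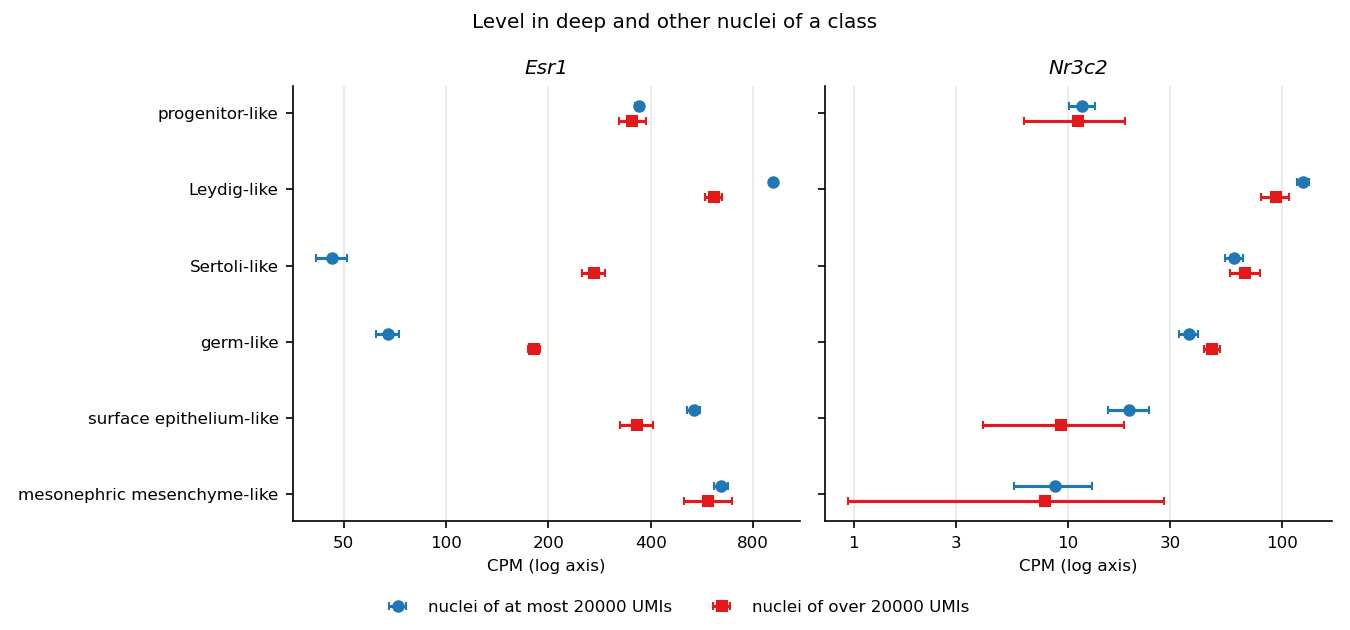
*Esr1* and *Nr3c2* level (CPM, log axis) in nuclei of at most 20000 UMIs (circles) and over 20000 UMIs (squares) of 6 classes, with exact 95% Poisson intervals. *Esr1* stands apart between the sets in Sertoli-like nuclei (46.1 and 272 CPM), while *Nr3c2* there does not (59.7 and 67.4 CPM).

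*Esr2* had the fewest UMIs of the receptor genes over all kept nuclei, and had another order, led by progenitor-like and contractile-like nuclei. The 1518 UMIs of the library gave 38.6 CPM in progenitor-like nuclei (35.8 to 41.6), 28.0 CPM in contractile-like (23.7 to 32.7), 18.3 CPM in Leydig-like (15.6 to 21.3) and 16.8 CPM in Sertoli-like nuclei (14.4 to 19.5). Progenitor-like exceeded contractile-like nuclei (ratio 1.38, 1.16 to 1.66) and contractile-like exceeded Leydig-like nuclei (1.53, 1.22 to 1.92), whereas no neighbours below that differed beyond counting error. Germ-like nuclei stood at 10.0 CPM, surface epithelium-like at 6.74 CPM and mesonephric mesenchyme-like at 6.33 CPM. The ratio to progenitor-like nuclei was 0.473 in Leydig-like (0.397 to 0.561), 0.435 in Sertoli-like, 0.260 in germ-like, 0.174 in surface epithelium-like and 0.164 in mesonephric mesenchyme-like nuclei (0.0981 to 0.258). In Leydig-like nuclei, therefore, *Esr1* was above and *Esr2* below the progenitor-like level, and in Sertoli-like nuclei both were below it. The mesonephric mesenchyme-like ratio became 0.536 (0.448 to 0.637) with classes from RNA alone, where that class took in contractile-like and surface epithelium-like nuclei. It became 0.0112 with doublets removed at the automatic threshold, which also gave 0.147 in germ-like and 0.0760 in surface epithelium-like nuclei. Subtracting the estimated free RNA left 0.0735 in germ-like nuclei and nothing in surface epithelium-like or mesonephric mesenchyme-like nuclei.

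At 2000 UMIs, *Esr2* had a UMI in 6.78% of progenitor-like nuclei (5.82% to 7.84%; 17.2% before thinning), 4.97% of contractile-like, 3.13% of Leydig-like and 2.90% of Sertoli-like nuclei. A UMI was found in 0 of 95 endothelial-like, 0 of 83 supporting-like and 0 of 45 erythroid-like nuclei. Limits for these shares, taken as 3 counts of the nuclei, were 3.16%, 3.61% and 6.67%. The exact 95% upper ends were 3.81%, 4.35% and 7.87%. Median depths of these classes were 9304, 10303 and 6554 UMIs, against 6294 in progenitor-like nuclei. The shares of Leydig-like, Sertoli-like, germ-like (1.52%), mesonephric mesenchyme-like (1.28%) and surface epithelium-like nuclei (0.735%) lay at or below the lowest of these limits. The limits are set by the few nuclei of those classes and are not a measured background. By level, the Leydig-like (15.6 to 21.3 CPM) and Sertoli-like intervals (14.4 to 19.5 CPM) lay above that of surface epithelium-like nuclei (4.70 to 9.37 CPM). The contractile-like share lay above the first and second limits, although its interval (3.50% to 6.81%) held the second and the exact upper ends of both classes. The progenitor-like share lay above all 3 limits, although its interval held the limit of the 45 erythroid-like nuclei. It lay below the exact upper end of those 45 nuclei.

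*Nr3c1* (ENSMUSG00000024431; chromosome 18, 39410545 to 39519421, minus strand) had the narrowest range of the 4 genes. It had UMIs in every class, was highest in erythroid-like (266 CPM, 218 to 322, from 47 nuclei) and mesonephric mesenchyme-like nuclei (245 CPM, 227 to 263), and was lowest in Sertoli-like nuclei (50.01 CPM, 45.7 to 54.6). Immune-like nuclei held 204 CPM (172 to 241), and neighbours among these 3 leading classes did not differ beyond counting error, whereas immune-like exceeded endothelial-like nuclei (ratio 1.42, 1.15 to 1.73). Endothelial-like (144 CPM), Leydig-like (142), pericyte-like (141), contractile-like (122), surface epithelium-like (118), progenitor-like (113), supporting-like (108) and germ-like nuclei (93.7 CPM) formed a chain in which no neighbours differed. The step from germ-like to Sertoli-like nuclei did (ratio 1.87, 1.70 to 2.07). Against progenitor-like nuclei the ratio was 2.17 in mesonephric mesenchyme-like (1.99 to 2.36), 1.26 in Leydig-like (1.18 to 1.35), 1.05 in surface epithelium-like (0.957 to 1.15), 0.831 in germ-like and 0.443 in Sertoli-like nuclei.

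The thinned shares of *Nr3c1* came in much the same order. A UMI was found in 41.2% of mesonephric mesenchyme-like nuclei (36.3% to 46.2%; 72.7% before thinning), 36.4% of immune-like, 27.4% of endothelial-like, 23.8% of Leydig-like and 17.7% of progenitor-like nuclei (39.6% before thinning). Sertoli-like nuclei had the lowest share of any class, 6.16% (4.62% to 8.02%), so no class with a lower share gave a background to read it against. This was at a median depth of 9847 UMIs against 6516 in mesonephric mesenchyme-like nuclei. As for *Esr1*, deep Sertoli-like nuclei held more (89.9 CPM) than the other Sertoli-like nuclei (37.6 CPM), and the ratio of the class to progenitor-like nuclei was 0.256 with doublets removed at the automatic threshold and 0.146 with the estimated free RNA subtracted, which left 16.5 CPM in Sertoli-like nuclei. The mesonephric mesenchyme-like ratio was 3.38 with that subtraction and 1.55 with classes from RNA alone, which is no longer 2-fold.

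*Nr3c2* was high in supporting-like, Leydig-like, Sertoli-like and germ-like nuclei and low in the mesenchyme. The level was 257 CPM in supporting-like (227 to 291), 118 CPM in Leydig-like (112 to 126), 61.6 CPM in Sertoli-like (56.8 to 66.6) and 42.3 CPM in germ-like nuclei (39.6 to 45.2), and each of these 4 differed from the next beyond counting error except germ-like from endothelial-like nuclei (38.9 CPM). Immune-like nuclei held 30.2 CPM and exceeded surface epithelium-like nuclei (17.7 CPM; ratio 1.71, 1.01 to 2.76). Pericyte-like (13.1 CPM), progenitor-like (11.6), mesonephric mesenchyme-like (8.67), erythroid-like (5.02) and contractile-like nuclei (4.51 CPM) closed the order with no step between neighbours. Beyond neighbours, contractile-like nuclei stood at 0.387 of the progenitor-like level (0.245 to 0.587). The ratio to progenitor-like nuclei was 10.2 in Leydig-like (8.78 to 11.8), 5.29 in Sertoli-like (4.52 to 6.20), 3.64 in germ-like, 1.52 in surface epithelium-like and 0.744 in mesonephric mesenchyme-like nuclei (0.475 to 1.12). With clusters from chromatin alone the Leydig-like ratio was 5.98 and the germ-like ratio 2.39. Reads on the antisense gene *Gm10649*, which overlaps the first bases of *Nr3c2* and is counted on its own, can be told apart only as far as the counting used strand.

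*Nr3c2* had a UMI in 24.1% of supporting-like nuclei (15.4% to 34.7%), 15.2% of Leydig-like (12.7% to 17.8%; 40.7% before thinning), 10.7% of Sertoli-like (8.72% to 13.1%; 28.9% before thinning) and 7.39% of germ-like nuclei at 2000 UMIs. Contractile-like nuclei gave the background at 1.10% (0.478% to 2.16%), with a median depth of 6592 UMIs against 9715 in Leydig-like nuclei. The progenitor-like share of 1.60% (1.15% to 2.18%) lay within that interval, so at this depth it was not distinguishable from the background. By level over all UMIs, however, contractile-like nuclei stood at 0.387 of progenitor-like nuclei (0.245 to 0.587), a difference beyond counting error. The part of free RNA in the progenitor-like level, with which the ratios above compare, was not tested. Subtracting the estimated free RNA left no *Nr3c2* in progenitor-like nuclei, so no ratio could be formed. Unlike *Esr1*, *Nr3c2* was similar in deep and other Sertoli-like nuclei (67.4 and 59.7 CPM). In the supporting-like class it was lower in the 6 deep nuclei (70.4 CPM) than in the other 77 (311 CPM).

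Levels of different genes can be set side by side only per length, since nuclear RNA includes introns. Per 100 kb of gene span and over all kept nuclei, *Nr3c1* stood at 103 CPM, *Esr1* at 80.3 CPM, *Esr2* at 34.6 CPM and *Nr3c2* at 12.4 CPM. On that scale *Esr1* led in Leydig-like nuclei (217 CPM per 100 kb, against 131 for *Nr3c1*, 34.3 for *Nr3c2* and 32.2 for *Esr2*). *Nr3c1* led in progenitor-like (104, against 93.5 for *Esr1* and 68.0 for *Esr2*), mesonephric mesenchyme-like (225, against 162 for *Esr1*) and Sertoli-like nuclei (45.9, against 29.6 for *Esr2* and 25.3 for *Esr1*). The leads in Leydig-like and mesonephric mesenchyme-like nuclei held under every setting that gave levels there. In Sertoli-like nuclei *Esr2* led with the estimated free RNA subtracted (26.8 CPM per 100 kb), and in progenitor-like nuclei *Esr1* led without the cluster of cell-cycle genes (104, against 98.7 for *Nr3c1*).

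Single nuclei held the receptors together about as often as the product of their shares. At 2000 UMIs, *Esr1* and *Nr3c1* were both found in 17.7% of Leydig-like nuclei (15.1% to 20.5%), where the product was 17.3%, and in 23.8% of mesonephric mesenchyme-like nuclei (19.6% to 28.3%), where it was 23.9%. *Esr1* and *Nr3c2* met in 10.2% of Leydig-like nuclei (8.14% to 12.5%; product 11.02%), and *Esr1* and *Esr2* in 3.29% of progenitor-like nuclei (2.62% to 4.07%; product 2.84%). None of the 4 genes was found in 16.9% of Leydig-like, 23.5% of mesonephric mesenchyme-like, 45.2% of progenitor-like and 73.7% of Sertoli-like nuclei.

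Set against the whole transcriptome, the members were read by the same rule as all genes: at least 2-fold from progenitor-like nuclei with 1 CPM added to both levels, among genes with 50 UMIs or more over both classes. In Leydig-like nuclei 10.3% of 13398 genes were higher and 12.0% lower, and *Nr3c2* and *Esr1* were among the higher and *Esr2* among the lower genes. In Sertoli-like nuclei, where 12.5% were higher and 11.0% lower, *Nr3c2* was higher and the other 3 were lower. In germ-like nuclei, where 22.7% were higher and 12.9% lower, *Nr3c2* was higher and both oestrogen receptor genes were lower. In surface epithelium-like nuclei (7.75% higher, 6.30% lower) *Esr2* alone passed, as lower. In mesonephric mesenchyme-like nuclei (4.21% higher, 4.58% lower) *Nr3c1* was higher and *Esr2* lower. Several of these calls lay near the 2-fold limit and ended under other settings, while the *Nr3c2* calls and those of germ-like and surface epithelium-like nuclei held under every setting that gave a value. In Leydig-like nuclei the *Esr1* call ended at a finer clustering (1.97, with 1 CPM added here and in the values that follow) and the *Esr2* call with stricter filters (0.535), with chromatin alone (0.701) and with RNA alone (0.512). In Sertoli-like nuclei the *Esr2* call ended with no doublet removal (0.523) and stricter filters (0.526), and the *Nr3c1* call with no doublet removal (0.587). In mesonephric mesenchyme-like nuclei stricter filters and RNA alone ended the calls of *Nr3c1* (1.69 and 1.55) and *Esr2* (0.526 and 0.548), and the finer clustering also ended that of *Nr3c1* (1.99). *Esr1*, not called there, became higher with free RNA subtracted (2.46, against 1.73).

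Accessibility was read as unique fragments at peaks, per 1000000 fragments of a class (FPM), on classes clustered from RNA alone so that chromatin had no part in them. The mesonephric mesenchyme-like values are therefore those of the class of 958 nuclei, of which 381 had that name by both assays. A start peak lay within 1 kb of the first or the last start that the feature table lists for a gene. The 4 genes differed in how much of their accessible DNA lay at starts: start peaks held 85.8% of the fragments at peaks of *Nr3c1* (6 peaks), 28.8% for *Esr2* (9 peaks), 15.1% for *Nr3c2* (16 peaks) and 14.6% for *Esr1* (21 peaks, 16 of them in introns). The share of *Nr3c2* rests on this rule, and was 49.0% when peaks at any annotated start were counted. In progenitor-like nuclei the start peaks stood at 32.6 FPM for *Nr3c1* (462 fragments), 9.02 for *Esr1* (128), 7.33 for *Esr2* (104) and 5.07 for *Nr3c2* (72).

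The start peaks of *Esr2*, and those of *Esr1* in Leydig-like and Sertoli-like nuclei, did not differ from progenitor-like nuclei beyond counting error, while RNA did. For *Esr1*, Leydig-like nuclei stood at 7.99 FPM (25 fragments), 0.886 of the progenitor-like value (0.553 to 1.37), while the RNA ratio on the same classes was 2.28. Sertoli-like nuclei stood at 0.801 (0.526 to 1.19), where the RNA ratio was 0.288. Germ-like nuclei were lower in both, at 0.440 for the start peaks (0.289 to 0.653) and 0.374 for RNA. The start ratio there became 0.818 with peaks within 2 kb and 0.282 with the automatic doublet threshold. For *Esr2* the ratios ran from 0.785 to 0.862 over the 5 classes and every interval held 1, while RNA ratios ran from 0.117 to 0.536. These start peaks had 10 to 49 fragments per class, so the intervals were wide. The Leydig-like interval (0.448 to 1.30) also held the RNA ratio of that class, 0.499, whereas the other classes' intervals lay above theirs.

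The starts of *Nr3c1* and *Nr3c2* also differed less between classes than RNA did in most comparisons, and not always on the same side. The *Nr3c1* start peaks were lower than in progenitor-like nuclei in Sertoli-like (0.777, 0.626 to 0.957), germ-like (0.758, 0.639 to 0.898) and surface epithelium-like nuclei (0.620, 0.427 to 0.875), where the RNA ratios were 0.477, 0.860 and 1.07. The Leydig-like ratio was 1.11 (0.895 to 1.37), and the mesonephric mesenchyme-like ratio was 0.981 at the start and 1.55 in RNA. The shares of fragments at any peak also differed, from 40.7% in progenitor-like to 36.3% in Sertoli-like and 32.0% in germ-like nuclei. Per fragment at peaks, the *Nr3c1* ratio was 0.964 in germ-like, 0.871 in Sertoli-like and 0.658 in surface epithelium-like nuclei. With transposase cuts it was 0.968, 0.870 and 0.660. Under both, the germ-like difference was nearly gone and the Sertoli-like difference was smaller. The *Nr3c2* start peak had a Leydig-like ratio of 1.58 (0.957 to 2.51) and a Sertoli-like ratio of 0.890 (0.513 to 1.48), which became 1.39 when peaks within 2 kb, or at any annotated start, were counted. The peak of *Nr3c2* with the most fragments (459) lay about 2.4 kb downstream of the first listed start, at chr8:76901727-76902641, and holds the RefSeq start whose sequence, with 3 GC boxes, is printed above. There Leydig-like nuclei stood at 17.3 FPM, 1.55 times the progenitor-like value of 11.1 (1.12 to 2.12), Sertoli-like nuclei at 18.1, 1.62 times that value (1.22 to 2.14), and germ-like nuclei at 11.05 (0.992). The RNA ratios of 10.5, 5.15 and 3.62 on these classes were all larger.

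**Figure D4:**
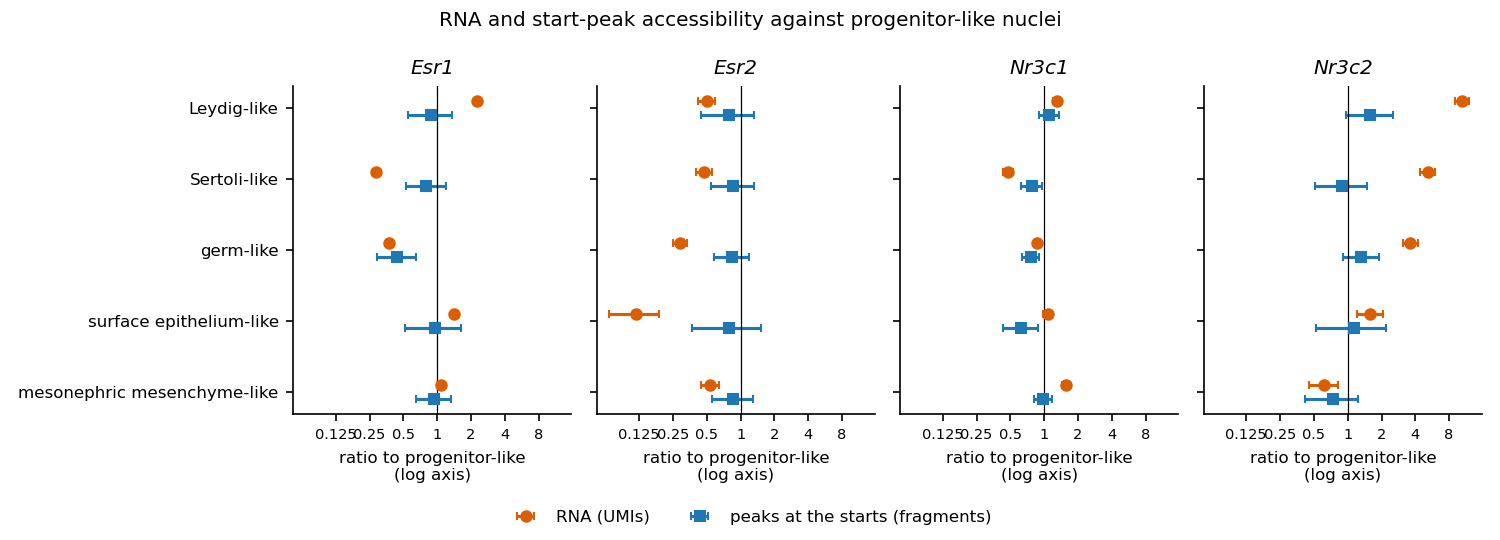
Ratio of 5 classes to progenitor-like nuclei (log axis) for RNA (circles, UMIs) and start peaks (squares, fragments), both on classes from RNA alone, with exact 95% intervals. For *Nr3c2* the Leydig-like RNA ratio is 10.5 and the start peak ratio 1.58, and for *Esr2* all 5 start peak intervals hold 1.

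**Figure D5:**
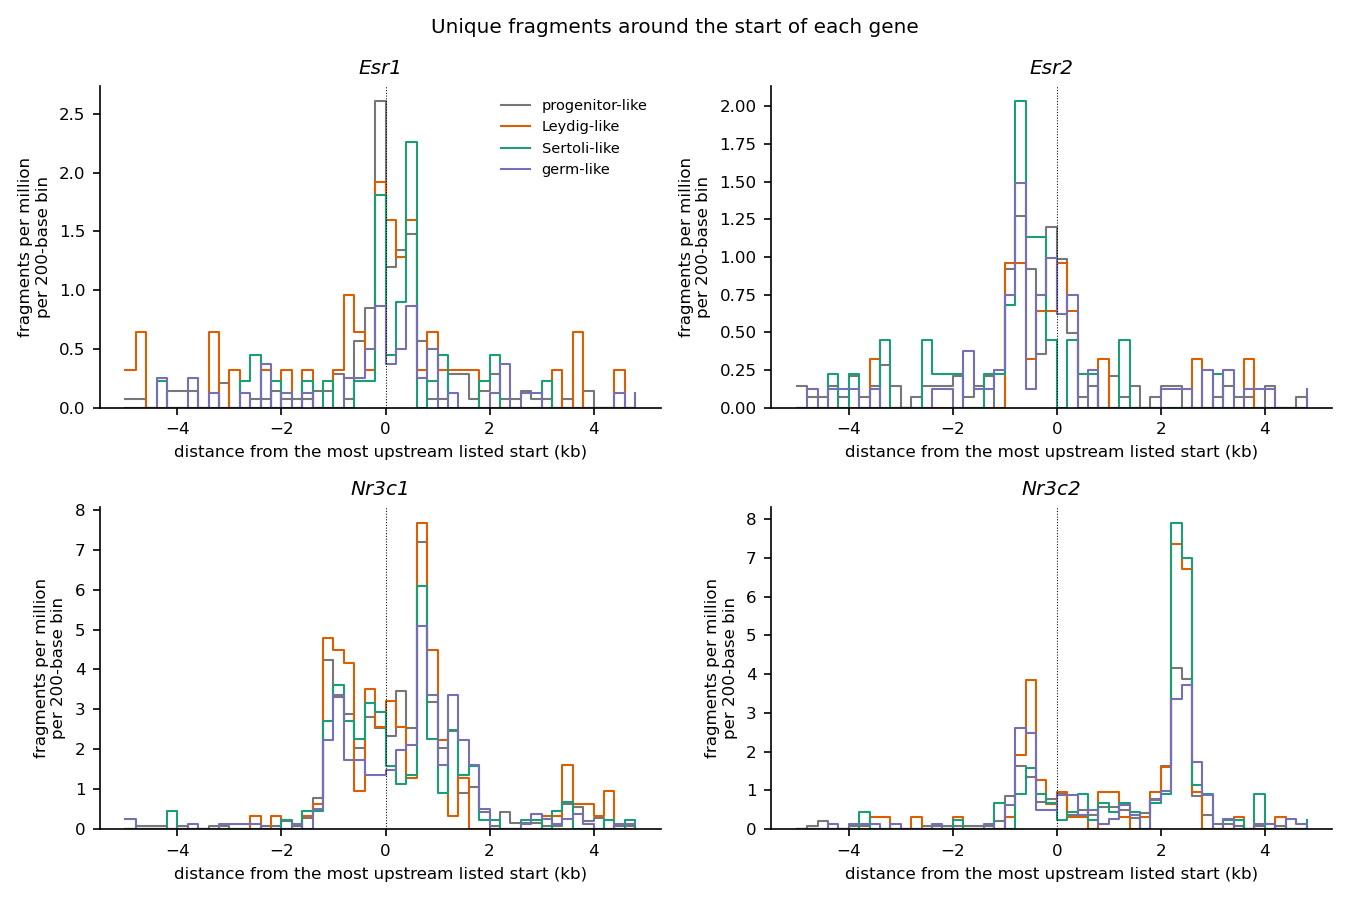
Unique fragments, in FPM, in bins of 200 bases, by distance (kb) from the most upstream listed start of each gene, in 4 classes. At *Nr3c2* the main peak lies beyond 2 kb, where bins reach 7.90 in Sertoli-like and 7.35 in Leydig-like nuclei.

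Some peaks away from the start peaks set classes further apart than the start peaks did, while others did not. The 3 most covered peaks of each gene other than the start peaks were examined. Of the intronic *Esr1* peaks, chr10:4645651-4646596 was lower than in progenitor-like nuclei (10.2 FPM) in all 5 classes, with ratios of 0.250 in Leydig-like (0.106 to 0.506) and 0.133 in Sertoli-like nuclei. The peak chr10:4971693-4972474 kept a Leydig-like ratio of 0.866 (0.541 to 1.34), with 0.220 in Sertoli-like, 0.188 in germ-like and 0.375 in surface epithelium-like nuclei. The peak chr10:4633405-4634301 stood at 1.42 in surface epithelium-like (0.867 to 2.21) and 0.512 in Leydig-like nuclei (0.279 to 0.875). None of these 3 peaks was more accessible in Leydig-like than in progenitor-like nuclei, although *Esr1* RNA was higher. They were picked by fragments over all kept nuclei, to which progenitor-like nuclei gave 14187475 and Leydig-like nuclei 3127553. That rule favours peaks open in progenitor-like nuclei, and the other *Esr1* peaks away from the starts were not compared by class. At *Esr2*, the intronic peak chr12:76128326-76129190 was lower in Sertoli-like (0.541, 0.336 to 0.839), surface epithelium-like (0.346), germ-like (0.260) and mesonephric mesenchyme-like nuclei (0.587), and stood at 0.767 in Leydig-like nuclei (0.476 to 1.19). At chr12:76117406-76118291, downstream of *Esr2*, the intervals of all 5 classes held 1. At the intronic peak chr12:76153945-76154795 only the germ-like interval (0.0713 to 0.473) excluded 1.

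A peak 1790 bases upstream of the outermost annotated end of *Nr3c1* had a different pattern. It held 43 fragments in all kept nuclei, of which 17 were Leydig-like and 8 progenitor-like, giving 5.44 and 0.564 FPM and a ratio of 9.64 (3.94 to 25.8). The Sertoli-like ratio was 1.20 (0.205 to 5.01) from 3 fragments and the germ-like ratio 0.880. The Leydig-like ratio lay between 9.16 and 12.9 with classes from both assays, with the automatic doublet threshold or with transposase cuts. An intronic *Nr3c1* peak stood at 1.60 in mesonephric mesenchyme-like nuclei (0.988 to 2.56) and at 0.349 in Leydig-like nuclei (0.0917 to 0.948). The intronic *Nr3c2* peak chr8:77214587-77215426 was lower in Leydig-like (0.412, 0.146 to 0.946) and germ-like nuclei (0.160, 0.0567 to 0.367).

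The genes of proteins that receptors work with differed from one another in spread. Of 13 chaperones and cochaperones, none was 2-fold from progenitor-like nuclei in Leydig-like nuclei, where 10.3% of all genes were higher and 12.0% lower and the median log2 ratio was 0.11 against 0.02 over all genes. *Hsp90ab1*, the constitutive HSP90, ranged from 154 to 247 CPM over all classes. *Fkbp5*, a cochaperone that lowers the hormone affinity of corticosteroid receptors and is also a classical target gene, ranged from 143 to 909 CPM. It was 2.50-fold higher in Sertoli-like nuclei (2.42 to 2.58) and lower in surface epithelium-like (0.454) and mesonephric mesenchyme-like nuclei (0.449), the class with the second highest *Nr3c1*. In germ-like nuclei *Stip1*, *Dnaja1* and *Hsp90aa1*, 3 of the 13, were higher, by 2.80, 2.16 and 2.12 times, where 22.7% of all genes were. Of 24 coregulators, *Ppargc1a*, a coactivator, was lower in Leydig-like (0.245), Sertoli-like (0.452), germ-like (0.239) and mesonephric mesenchyme-like nuclei (0.302) and higher in surface epithelium-like nuclei (2.16), and *Ncoa7* was higher in Sertoli-like nuclei (5.06). In germ-like nuclei *Ncoa3*, another steroid receptor coactivator, was higher (2.19) and *Ncoa1*, SRC-1, lower (0.283). These were 1 of 24 lower in Leydig-like nuclei, 1 higher and 1 lower in Sertoli-like and 1 higher and 2 lower in germ-like nuclei, shares below those of all genes (12.0% lower in Leydig-like, 12.5% higher and 11.0% lower in Sertoli-like, 22.7% higher and 12.9% lower in germ-like nuclei).

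Enzymes and carriers of the ligands were sparse. Of the 9 with enough UMIs in Leydig-like nuclei, 4 were higher and 2 lower, where 10.3% of all genes were higher and 12.0% lower. In Sertoli-like nuclei 2 of 9 were higher and 3 lower (12.5% and 11.0% of all genes), and in germ-like nuclei 1 of 8 was higher and 3 lower (22.7% and 12.9%). In Leydig-like nuclei *Cyp11b1*, the 11β-hydroxylase of glucocorticoid synthesis, stood at 22.2 CPM against 0.599 CPM in progenitor-like nuclei. *Cyp21a1*, the 21-hydroxylase, stood at 11.8 CPM in Leydig-like against 1.31 CPM in progenitor-like nuclei. *Hsd17b7* and *Hsd17b12* were 8.46-fold and 2.55-fold higher in Leydig-like nuclei. *Hsd11b2*, which inactivates corticosterone and so protects the mineralocorticoid receptor, was highest in progenitor-like nuclei (32.3 CPM) and at least 2-fold lower in all 5 classes compared, with 7.49 CPM in Leydig-like and 6.33 CPM in Sertoli-like nuclei. *Cyp1b1*, which hydroxylates oestradiol, was lower in Leydig-like nuclei (0.410). In Sertoli-like nuclei *Shbg*, the sex hormone binding globulin (18.8 CPM), and *Hsd17b1* (9.88 CPM) were higher, against 0.435 and 0.490 CPM. Aromatase, *Cyp19a1*, which makes oestrogens, had 18 UMIs in all kept nuclei.

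Genes listed as targets of corticosteroids or oestrogens were also counted. Of the corticosteroid targets, 3 of 11 measured were higher in Leydig-like nuclei (*Ddit4* 7.25-fold, *Sgk1* 4.99-fold, *Tsc22d3* 4.17-fold) and none was lower (10.3% and 12.0% of all genes), with a list median log2 ratio of 0.79 against 0.02 over all genes. In Sertoli-like nuclei 4 of 11 were higher, led by *Sgk3* (14.52-fold), and *Glul* was lower (12.5% and 11.0% of all genes), with a median of -0.07 against 0.10. In germ-like nuclei 5 of 12 were higher and none lower (22.7% and 12.9% of all genes), with a median of 0.58 against 0.23. In mesonephric mesenchyme-like nuclei *Klf9* and *Per1* were higher and *Fkbp5* lower, among 9 (4.21% and 4.58% of all genes), with a median of 0.83 against -0.07. In surface epithelium-like nuclei 2 of 10 were higher and 1 lower (7.75% and 6.30% of all genes), with a median of -0.06 against -0.03. Of the oestrogen targets, *Greb1* was higher in Leydig-like (4.99-fold) and Sertoli-like nuclei (3.74-fold) and highest in supporting-like nuclei (1006 CPM). *Cxcl12*, *Wnt4* and *Igfbp4* were lower in Leydig-like and Sertoli-like nuclei. These calls were out of 12 measured in Leydig-like (10.3% of all genes higher, 12.0% lower) and 13 in Sertoli-like nuclei (12.5% and 11.0%). In germ-like nuclei 2 of 13 were higher (*Pdzk1*, *Myb*) and 5 lower, where 22.7% and 12.9% of all genes were. None was higher and 4 were lower in both mesonephric mesenchyme-like (of 11, with 4.58% of all genes lower) and surface epithelium-like nuclei (of 13, with 6.30%). The list median log2 ratio was 0.01 in Leydig-like nuclei against 0.02 over all genes, and -0.16 in Sertoli-like nuclei against 0.10. It was -0.75 against 0.23 in germ-like, 0.04 against -0.07 in mesonephric mesenchyme-like and -0.24 against -0.03 in surface epithelium-like nuclei. The genes of both target lists respond to other inputs too, and no hormone level was measured.

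The genes most like each receptor over the 11 classes of at least 50 nuclei, by Pearson r of log2(CPM + 1) among 10945 genes, were a description of shared pattern only. *Nr3c2* was followed closest, by *Fbxo16* (r = 0.949), *Sh2d4a* (0.938), *Fhod3* (0.932) and *Rps6ka3* (0.921). For *Esr1* the nearest were *Gm15787* (0.861), *2900097C17Rik* (0.834), *Ust* (0.819), *Ift172* (0.812) and *Cacng8* (0.809). For *Esr2* they were *Gm49390* (0.875), *Eya1* (0.838), *Pdyn* (0.836), *Cd24a* (0.828) and *AU020206* (0.812), and for *Nr3c1* *Eea1* (0.860), *Klf3* (0.858), *Ppp3ca* (0.847), *Gmfb* (0.831) and *Dnajc3* (0.823). Among the receptors, *Esr1* and *Nr3c1* were most alike (r = 0.482), and the other 5 pairs lay between -0.380 and 0.0659. The points share 1 library and its free RNA.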

How the data were processed

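The authors aligned both libraries to mm10 with Cell Ranger ARC 2.0.1, and the deposited counts are UMIs per gene (introns included) and transposase cuts per peak, beside a list of unique fragments. Nuclei with 500 genes or more, under 10% mitochondrial, 10% ribosomal protein and 0.5% haemoglobin UMIs, 20% or more of fragments at peaks and 250 to 25000 fragments at peaks were kept (7667 of 9833), and the 470 with the highest Scrublet scores (scanpy 1.11.5) were removed as doublets, after an expected rate of 0.8% per 1000 nuclei. Clusters came from 30 components of each assay (Seurat 5.3.0, irlba 2.3.5.1, R 4.3.3; resolution 0.3), without the members and listed genes, and were named by markers. Counts were summed per class (Python 3.11.15, numpy 2.4.6, pandas 2.3.3) and given as CPM. Levels have exact Poisson, shares Clopper-Pearson and ratios conditional binomial intervals at 95% (scipy 1.17.1). The count tests that suit replicated libraries were not run, since each assay has 1 library. The 7197 kept nuclei held 77166216 UMIs and 38270604 fragments. All 9833 barcodes were shared by the 2 libraries.

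Genes named beside the members were the 5 most alike by Pearson r (500 UMIs or more) and, per list and class, at most 4 that were at least 2-fold higher or lower by the largest ratio, plus partners above 100 CPM in every class by their range. Some genes under these rules and some markers are not reported here. The members and lists were chosen with earlier results of these data known. Other doublet thresholds, filters, clusterings, depth limits, a free RNA subtraction and other peak rules were tried. The calculation was tested on simulated data.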

Additional observations from a re-analysis of the deposited data

How the results depend on the processing

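No paired analysis was possible because each assay has 1 library and no replicate. Of 188 alternative RNA ratios, 109 stayed within the counting interval of the reported value and 79 moved further. For start peaks, 115 of 120 stayed within it. Alternatives on the other side of 1 numbered 3 for RNA (*Nr3c1* in surface epithelium-like nuclei, down to 0.940) and 16 for start peaks, in each case for a ratio whose own interval held 1. Of 150 alternative list counts 31 moved, 23 of them at a limit of 1.5-fold and 7 with a pseudocount of 5 CPM, and of 92 thinned shares 28 moved, 21 of them at 4000 UMIs. With doublets removed at the automatic threshold, the ratio to progenitor-like nuclei was 2.69 for *Esr1* in Leydig-like nuclei, and in Sertoli-like nuclei 0.0740 for *Esr1*, 0.340 for *Esr2* and 0.256 for *Nr3c1*. With no doublet removal, Leydig-like ratios were 2.22 for *Esr1*, 1.37 for *Nr3c1* and 8.39 for *Nr3c2*, and Sertoli-like ratios 0.376, 0.583 and 4.44. With at least 1000 genes and 1000 fragments at peaks, *Esr1* was 0.365 and *Nr3c2* 6.75 in Sertoli-like nuclei, and *Nr3c2* 13.0 in Leydig-like nuclei. With clusters from chromatin alone, *Esr1* was 0.199 and *Nr3c2* 4.36 in Sertoli-like, and *Esr2* 0.692 and *Nr3c2* 5.98 in Leydig-like nuclei. At a resolution of 0.6, *Esr1* was 1.97 in Leydig-like and 0.243 in Sertoli-like nuclei. In nuclei of at most 20000 UMIs, *Esr1* was 2.49 in Leydig-like, and *Esr1* 0.125, *Esr2* 0.344 and *Nr3c1* 0.332 in Sertoli-like nuclei. With free RNA subtracted, Leydig-like ratios were 2.95 for *Esr1*, 0.356 for *Esr2* and 1.42 for *Nr3c1*, and Sertoli-like ratios 0.311 for *Esr2* and 0.146 for *Nr3c1*. That setting gave no *Esr1* ratio in Sertoli-like nuclei and no *Nr3c2* ratio, and chromatin alone left mesonephric mesenchyme-like nuclei unnamed. Chosen after seeing the data, leaving out the cell-cycle cluster gave 2.09 (*Esr1*) and 8.18 (*Nr3c2*) in Leydig-like and 0.244 and 4.25 in Sertoli-like nuclei. The *Nr3c2* start ratio in Sertoli-like nuclei was 1.39 with peaks within 2 kb and, also chosen afterwards, at any annotated start. The other alternatives chosen afterwards were clusters from RNA alone, start peaks per fragment at peaks, the upstream *Nr3c1* peak under other settings and leaving out the nucleus with the most UMIs, which moved 0 of 20 ratios. Leaving out that nucleus was not tried in the contractile-like class or the small classes. The most alike genes depended on the measure: Spearman's rho changed all 4 lists of 5. The causes were not tested. Counts below 50 fragments or UMIs limit the small classes and single peaks most.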
